A study of Mus musculus with 9 samples.

Results

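The promoters of the genes for the mitochondrial ribosome and for the respiratory chain were followed in an ATAC-seq study of naive CD4+ T cells, in which a transposase cuts and tags open chromatin. The members were the peaks that the authors' table places at a transcription start site (TSS) and assigns to a gene whose symbol starts with Mrpl or Mrps and a digit, Nduf, Uqcr, Cox4 to Cox8, or Atp5. This gave 138 peaks of 128 gene symbols, among 115727 peaks in all and 14470 other TSS peaks. The symbols and the TSS annotation chose the members, and no level or test result entered the rule. The rule itself was set with earlier results of these data known. The libraries came from Stat6_KO, Il21e_KO and WT mice, all C57BL/6 and untreated, with 3 libraries per genotype. Stat6_KO animals are labelled as lacking STAT6, which signals downstream of the interleukin-4 receptor and acts on transcription. The Il21e_KO allele is labelled both as Il21e KO and as IL21KO, and the labels do not say which DNA was removed. Whether the 3 libraries of a genotype come from different mice is not stated, and p-values therefore refer to the spread among libraries. Naive cells were enriched by negative selection, and 50000 cells went into each tagmentation of 30 minutes.

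Mitochondrial ribosomes translate the few proteins encoded by mitochondrial DNA, all of which belong to the respiratory chain or the ATP synthase. Their own proteins, in a large (Mrpl) and a small (Mrps) subunit, and most respiratory chain subunits are encoded in the nucleus and imported. Complex I (Nduf genes) takes electrons from NADH, complex III (Uqcr) passes them to cytochrome c, complex IV (Cox) passes them to oxygen, and ATP synthase (Atp5) uses the resulting proton gradient to make ATP. Resting naive T cells draw on this respiration, and activated T cells enlarge their mitochondria. Promoters of such genes are known for binding sites of NRF1, of the ETS factor GABP and of YY1, factors that act at many housekeeping genes.

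Letters that match the motifs of these factors can be sought in the promoter sequence, though a match alone does not show binding. RefSeq windows of the GRCm38.p6 assembly were available for 113 of the 128 genes. The stretches below hold 150 bases before the start and 30 after it, and capitals mark a match to the NRF1 motif CGCNTGCGC, the ETS motif CCGGAAG or the YY1 motif AAGATGGCG on either strand. The first set shows mitochondrial ribosome promoters that carry each kind of match. Mrpl32, a large-subunit protein, is shown at chr13:14613008-14613187 on the minus strand. It holds 3 NRF1 matches, of which a pair overlaps. Mrpl36 lies at chr13:73330859-73331038 on the plus strand and holds a YY1 match upstream of the start. Mrps18a lies at chr17:46110854-46111033 on the plus strand, with an ETS match upstream and a YY1 match just after the start.
Mrpl32: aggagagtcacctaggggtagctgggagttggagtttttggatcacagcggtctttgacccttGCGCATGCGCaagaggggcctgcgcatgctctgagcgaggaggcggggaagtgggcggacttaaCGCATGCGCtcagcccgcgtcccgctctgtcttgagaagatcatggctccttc
Mrpl36: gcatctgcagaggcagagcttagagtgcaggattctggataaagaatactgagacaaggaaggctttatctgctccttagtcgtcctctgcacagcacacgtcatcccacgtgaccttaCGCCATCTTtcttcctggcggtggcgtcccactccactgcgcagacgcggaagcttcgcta
Mrps18a: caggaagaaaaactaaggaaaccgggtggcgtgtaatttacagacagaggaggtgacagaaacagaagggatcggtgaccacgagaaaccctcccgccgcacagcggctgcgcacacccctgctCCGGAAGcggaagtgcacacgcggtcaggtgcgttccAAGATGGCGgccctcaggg

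The second set takes 1 or more promoters from each respiratory complex and from ATP synthase, chosen for contrast. Ndufs8, a core iron-sulfur subunit of complex I, is shown at chr19:3912745-3912924, minus strand, with 1 ETS match after the start. Ndufs6, an accessory subunit of complex I, is shown at chr13:73328453-73328632, minus strand, with 1 NRF1 match. Uqcr11, a small subunit of complex III at chr10:80406792-80406971, minus strand, holds an ETS and an NRF1 match. Cox6a1, the broadly expressed form of a complex IV subunit, lies at chr5:115348929-115349108, minus strand, with both of these as well. Cox7a1, a heart and muscle form of another complex IV subunit, lies at chr7:30184021-30184200, plus strand, and holds none of these 3 motifs. Atp5j, coupling factor 6 of ATP synthase, is shown at chr16:84834947-84835126, minus strand, with a YY1 and an ETS match upstream. A second RefSeq window of Atp5j, at chr16:84835576-84835875, holds 0 matches to these 3 motifs. Where a gene had several windows, the one with the most matches was printed. Windows were matched by symbol only, so the stretch printed for Atp5j need not lie at the start that the peak annotation uses.
Ndufs8: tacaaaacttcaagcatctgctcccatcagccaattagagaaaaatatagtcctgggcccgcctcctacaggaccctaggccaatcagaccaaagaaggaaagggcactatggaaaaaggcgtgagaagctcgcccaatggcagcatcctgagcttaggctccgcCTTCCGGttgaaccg
Ndufs6: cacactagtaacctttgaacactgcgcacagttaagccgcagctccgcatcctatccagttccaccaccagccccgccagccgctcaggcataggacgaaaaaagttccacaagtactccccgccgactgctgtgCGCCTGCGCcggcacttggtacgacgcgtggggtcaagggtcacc
Uqcr11: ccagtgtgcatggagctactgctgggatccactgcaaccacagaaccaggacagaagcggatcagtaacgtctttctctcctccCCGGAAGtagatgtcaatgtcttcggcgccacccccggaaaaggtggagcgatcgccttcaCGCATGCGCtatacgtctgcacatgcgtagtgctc
Cox6a1: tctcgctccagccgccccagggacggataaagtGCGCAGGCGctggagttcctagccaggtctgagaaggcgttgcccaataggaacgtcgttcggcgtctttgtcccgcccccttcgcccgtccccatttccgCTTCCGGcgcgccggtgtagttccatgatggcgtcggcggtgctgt
Cox7a1: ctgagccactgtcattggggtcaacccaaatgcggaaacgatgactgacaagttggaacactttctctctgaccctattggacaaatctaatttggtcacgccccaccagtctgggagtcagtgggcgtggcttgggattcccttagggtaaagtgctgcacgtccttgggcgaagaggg
Atp5j: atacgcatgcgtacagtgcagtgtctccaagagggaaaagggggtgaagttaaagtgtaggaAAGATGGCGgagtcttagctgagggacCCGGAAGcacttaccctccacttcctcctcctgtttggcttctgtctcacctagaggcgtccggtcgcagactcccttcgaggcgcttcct

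Across all member windows of 300 bases (250 before and 50 after a start), the 3 motifs were more frequent than in other promoters with a TSS peak. The YY1 letters stood in 13.01% of the 123 member windows, against 2.44% of 12552 windows of other genes with a TSS peak and 1.40% of all 32851 windows in the RefSeq table. The NRF1 letters stood in 23.6% of member windows, against 11.8% and 6.25%. The ETS letters stood in 26.8%, against 15.5% and 8.86%. At least 1 of the 3 was present in 53.7% of member windows and in 26.5% of those of other genes with a TSS peak. The YY1 and ETS matches overlapped in 0 member windows. Ronin (THAP11) letters, ACTACANNT, stood in 10.6% of member windows against 4.96% of the other windows with a TSS peak. By contrast the SP and KLF motif GGGCGG was less frequent, in 47.2% against 61.8%. The cyclic AMP response element TGACGTCA (3.25% against 2.94%) and the E-box CACGTG (8.94% against 9.89%), bound by MYC and related factors, lay close to the other windows. The median GC content was 57.7% in member windows and 60.7% in the other windows. Windows of 1 gene can overlap, and the shares are descriptions of letters in the sequence, with no test.

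**Figure D1:**
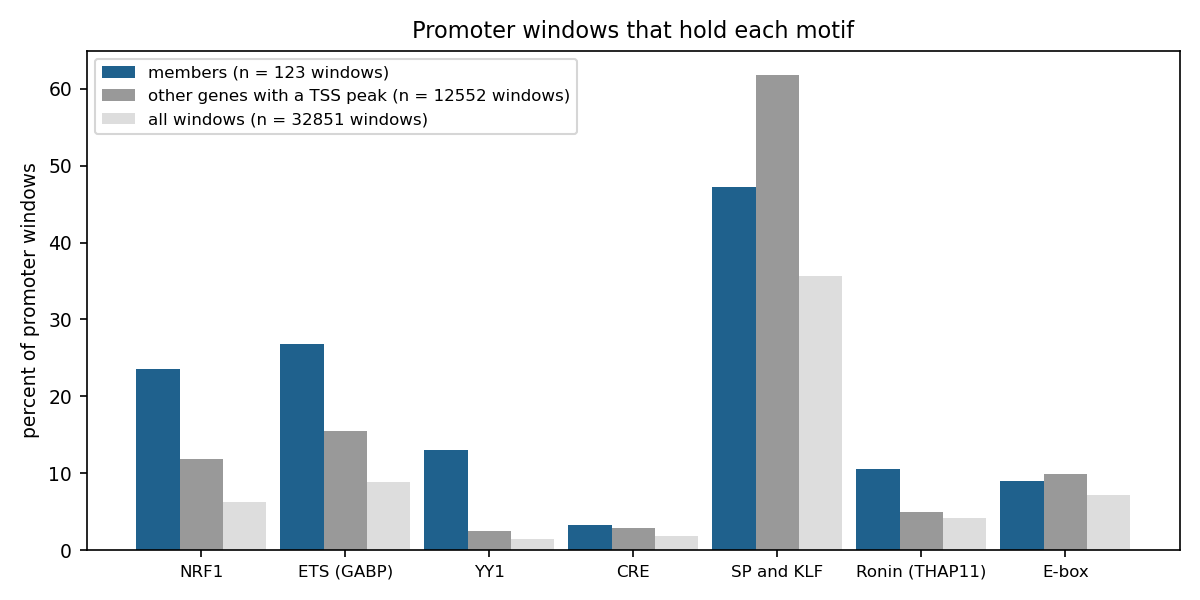
Percent of RefSeq promoter windows (y axis) that hold each motif (x axis) on either strand, for 123 member windows, 12552 windows of other genes with a TSS peak and all 32851 windows. The member bar for YY1 reaches 13.01% against 2.44% in other genes with a TSS peak, and the member bar for SP and KLF is the lower one, at 47.2% against 61.8%.

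Counts of windows with a match were small within each role, and differences between roles were not tested. YY1 letters stood in 4 of 17 ATP synthase windows, of which a pair are overlapping windows of Atp5sl, and in 4 of 21 complex I accessory windows, against 0 of 11 complex IV and 0 of 4 complex III windows. NRF1 letters stood in 10 of 38 large-subunit windows and 2 of 22 small-subunit windows. ETS letters stood in 11 of 38 large-subunit, 7 of 22 small-subunit and 2 of 21 complex I accessory windows. The YY1 matches of members had a median position of 27 bases after the start, and the ETS matches a median of 14 bases before it. Member promoters with NRF1 letters had a median of 21.3 CPM over the 9 libraries, and those without had 24.9 CPM. CPM is the deposited unit, in which a peak's reads are scaled to the library's own sum over all peaks. Among other genes with a TSS peak the order was the other way, at 27.1 CPM with and 25.7 CPM without.

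Many member promoters were shared with a neighbour that starts nearby on the opposite strand. In RefSeq, 24 of the 113 members with a window (21.2%) had another coding gene starting within 1000 bases in the divergent direction, against 768 of 9386 other coding genes with a TSS peak (8.18%). Atp5j faces Gabpa, which encodes the DNA-binding subunit of GABP itself. Mrpl40 faces Hira, a histone H3.3 chaperone, and Mrpl32 faces Psma2, a proteasome subunit. Mrpl43 faces Twnk, the helicase of mitochondrial DNA replication, and Mrps12 faces Sars2, the mitochondrial seryl-tRNA synthetase. In a pair of cases both sides are of this kind, Mrps11 with Mrpl46 and Mrpl47 with Ndufb5. The partner had a TSS peak of its own for 4 of the 24. The table gives each peak at most 1 gene symbol, so a peak on such a promoter counts for 1 side only. Of 170 RefSeq coding genes with a matching symbol, 44 had no TSS peak under their own name. A divergent partner with a TSS peak was found for 22 of these, among them Mrps7 (partner Gga3), Mrps18c (Helq) and Mrpl18 (Tcp1). For these genes the absence of a peak under their own symbol is therefore no measure of a closed promoter.

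The libraries held 1049460 to 1802405 reads in peaks, and the members took 4233 to 5671 of them, with a median of 36 reads per promoter and library. Il21e_KO 1 stood apart. It had the fewest reads, no read in 27200 peaks against 3898 to 12916 in the other libraries, and 42.7% of its reads in TSS peaks against 31.6% to 36.4%. Members took 1.04% of its TSS reads, against 0.927% to 0.971%. Of 128 member promoters, taking 1 peak per gene, 90 had their highest CPM in this library, so values of the comparisons with Il21e_KO are also given without it. To a lesser degree WT 1 and WT 2 leaned the same way. They had no read in 11963 and 12916 peaks, and 36.4% and 35.6% of their reads in TSS peaks. The remaining libraries, WT 3 among them, had 3898 to 6749 such peaks and TSS shares of 31.6% to 33.3%. The part of this difference in the comparisons with WT was not tested. At the targeted genes, the Stat6 start peak was present in every genotype, and a peak in exon 12 of Stat6 held 3 to 5 reads in Stat6_KO, 5 to 15 in Il21e_KO and 9 to 19 in WT. A peak in exon 16 went the other way, with 25 to 41 reads in Stat6_KO, 2 to 14 in Il21e_KO and 9 to 17 in WT. Which part of Stat6 was deleted is not given in the sources used here, so these peaks do not check that label. The 6 peaks of Il21 held at most 5 reads in any library, too few to check the Il21e_KO label. All 9 naive CD4+ T cell marker genes had a TSS peak (Tcf7 at 68.0 CPM, Cd4 at 5.51 CPM), and 0 of 3 erythroid genes did. The highest B cell marker, Ms4a1, had a mean of 7.23 CPM over the 9 libraries and up to 13.5 CPM in 1 library. The CD8 T cell marker Cd8b1 had a mean of 35.1 CPM, and Cd8a had no TSS peak. Of the myeloid markers, Cd14 had 37.7 CPM, Itgam 9.82 CPM and Spi1 0.967 CPM, and Lyz2 and Csf1r had no TSS peak. Of the NK cell markers, Klrd1 had 11.9 CPM, Ncr1 1.86 CPM and Klrb1c no TSS peak. In such bulk samples, fewer cells of a type and less signal per cell cannot be told apart.

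Member promoters were open at a typical and even level. The median member peak had 24.0 CPM (quartiles 18.8 and 28.5), against 23.7 CPM (11.2 and 32.9) for the other TSS peaks. The upper quartile was 1.52 times the lower among members and 2.93 times among the others. Only 5.80% of member peaks lay under 10 CPM against 23.9% of the others, and 4.35% lay over 40 CPM against 13.8%. Per kilobase of peak, the median was 22.4 CPM per kb in members (quartiles 19.1 and 25.3) and 21.6 CPM per kb in other TSS peaks (15.2 and 25.4). Cytosolic ribosomal protein promoters, at 69 peaks with a median of 23.4 CPM and quartiles of 17.4 and 28.1, had a like spread. So had 40 proteasome promoter peaks, with a median of 24.8 CPM and quartiles of 19.6 and 30.7. The ratio of the member median to that of the other TSS peaks was 1.01 over all libraries and lay between 0.943 (Il21e_KO 2) and 1.06 (Il21e_KO 1) in single libraries. With 1 peak per gene the ratio was 0.953, and over the peaks that passed the filter on low counts it was 0.909, since more of the other TSS peaks were removed. Peak length followed the reads (Pearson r of 0.915 and Spearman rho of 0.804 over the 138 member peaks on log scales), so length and CPM are not separate measures.

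**Figure D2:**
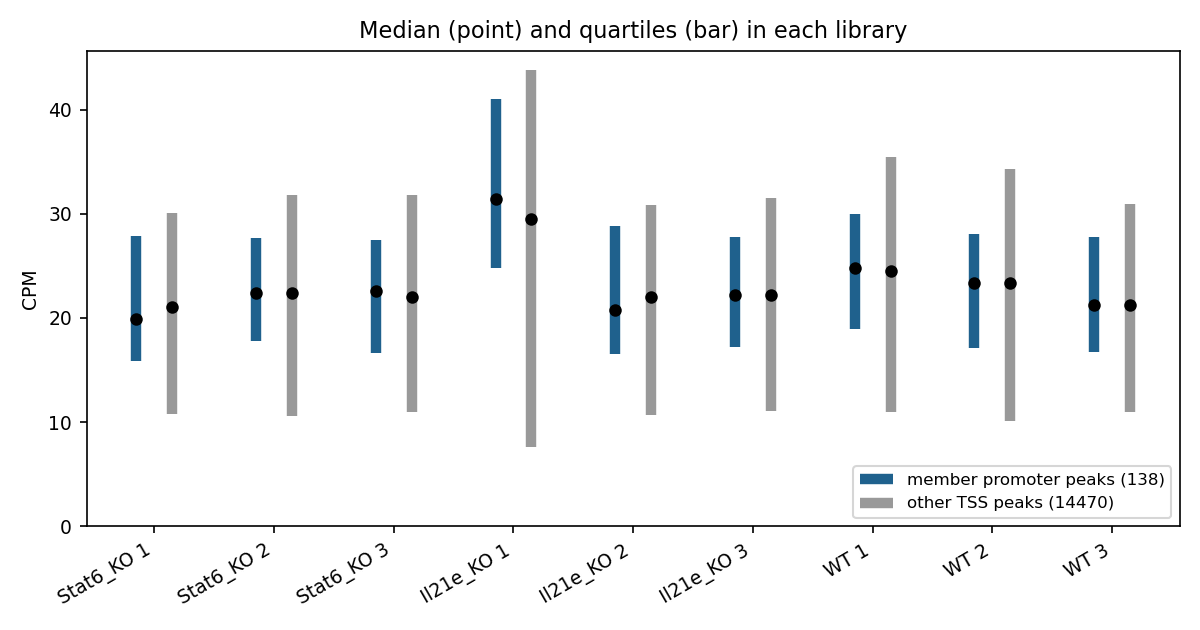
CPM (y axis) in each of the 9 libraries (x axis), as the median (point) and quartiles (bar) of the 138 member promoter peaks and of the 14470 other TSS peaks. Member bars are shorter than those of the other TSS peaks in every library, and Il21e_KO 1 has the highest medians, at 31.4 CPM for members and 29.5 CPM for other TSS peaks.

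The mitochondrial ribosome supplied 61 of the 128 promoters. The 37 large-subunit promoters had a median of 24.1 CPM (22.3 CPM per kb) and the 24 small-subunit promoters a median of 24.3 CPM (24.8 CPM per kb). Mrpl40 had the most reads of all, at 47.0 ± 2.98 CPM in Stat6_KO, 61.3 ± 18.3 in Il21e_KO and 65.7 ± 5.83 in WT (SD, n = 3 each). Its peak was also the longest, at 2173 bases, and per kilobase it had 26.7 CPM. Mrps6, of the small subunit, came next with 48.3 ± 4.37 CPM in Stat6_KO, 53.0 ± 10.6 in Il21e_KO and 61.1 ± 7.70 in WT, and led all members per kilobase at 30.7 CPM per kb. Mrpl14 averaged 43.1 ± 5.69 CPM in Stat6_KO, 50.5 ± 10.8 in Il21e_KO and 44.6 ± 6.36 in WT. At the low end, Mrpl55 had 4.13 ± 0.152 CPM in Stat6_KO, 4.06 ± 3.90 in Il21e_KO and 5.68 ± 1.25 in WT, and its peak of 952 bases was 4.85 CPM per kb, so it was the 1 gene with no tested peak. Mrps14 (14.2 ± 2.46 CPM in Stat6_KO, 18.4 ± 12.4 in Il21e_KO and 12.9 ± 5.24 in WT) was the lowest of the small subunit, and Mrps34 was its second highest (33.5 ± 2.96 CPM in Stat6_KO, 34.3 ± 8.79 in Il21e_KO and 35.6 ± 4.68 in WT). Mrpl12, a protein of the ribosomal stalk, averaged 20.3 ± 4.04 CPM in Stat6_KO, 25.0 ± 7.38 in Il21e_KO and 21.2 ± 3.87 in WT, and Mrps12, of the decoding site, 21.2 ± 2.03 CPM in Stat6_KO, 24.5 ± 9.33 in Il21e_KO and 22.7 ± 1.36 in WT.

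Complex I promoters fell into 3 roles. The 6 core subunits, which carry the flavin and iron-sulfur centres or bind the quinone, had a median of 23.2 CPM (19.1 CPM per kb). The 20 accessory subunits had 25.2 CPM (22.8 CPM per kb) and the 6 assembly factors 28.1 CPM (24.7 CPM per kb). Ndufv1, which binds NADH, averaged 22.0 ± 1.86 CPM in Stat6_KO, 30.2 ± 16.3 in Il21e_KO and 21.5 ± 3.60 in WT (SD, n = 3 each). The highest core promoters were Ndufv2 (22.0 ± 3.86 CPM in Stat6_KO, 34.3 ± 10.9 in Il21e_KO and 25.5 ± 4.32 in WT) and Ndufs3 (24.0 ± 2.61 CPM in Stat6_KO, 24.4 ± 4.45 in Il21e_KO and 26.8 ± 2.55 in WT). Ndufs1 has no TSS peak under its symbol. Ndufa4, first assigned to complex I and now placed in complex IV, was the highest Nduf promoter at 40.3 ± 4.04 CPM in Stat6_KO, 40.9 ± 10.97 in Il21e_KO and 42.7 ± 3.05 in WT. Ndufa1 was the steadiest of all members, with a coefficient of variation of 7.29% over the 9 libraries and values of 31.2 to 39.4 CPM. Ndufs6 was the lowest accessory promoter (15.9 ± 3.09 CPM in Stat6_KO, 17.5 ± 2.09 in Il21e_KO and 14.5 ± 0.696 in WT). Of the assembly factors, Ndufaf6 (33.1 ± 4.47 CPM in Stat6_KO, 39.0 ± 14.4 in Il21e_KO and 36.0 ± 9.12 in WT) and Ndufaf2 (31.6 ± 1.76 CPM in Stat6_KO, 39.7 ± 5.50 in Il21e_KO and 34.4 ± 3.91 in WT) were highest and Ndufaf4 (19.7 ± 4.98 CPM in Stat6_KO, 18.9 ± 4.30 in Il21e_KO and 20.4 ± 3.52 in WT) lowest.

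Complex III, complex IV and ATP synthase promoters had medians of 26.7, 21.2 and 25.4 CPM, over 6, 14 and 15 genes (23.3, 22.5 and 22.9 CPM per kb). In complex III, Uqcrc1, a core protein, averaged 28.8 ± 1.26 CPM in Stat6_KO, 30.7 ± 3.16 in Il21e_KO and 26.0 ± 3.82 in WT (SD, n = 3 each). Uqcrfs1, the Rieske iron-sulfur protein, averaged 26.1 ± 3.59 CPM in Stat6_KO, 24.7 ± 1.97 in Il21e_KO and 23.7 ± 3.82 in WT. The highest complex III promoter was Uqcrc2, the other core protein, at 36.0 ± 3.40 CPM in Stat6_KO, 43.5 ± 14.1 in Il21e_KO and 37.7 ± 4.35 in WT, followed by Uqcr10 at 27.7 ± 0.160 CPM in Stat6_KO, 36.1 ± 14.98 in Il21e_KO and 34.7 ± 5.70 in WT. Uqcr11 was the lowest, at 20.6 ± 2.14 CPM in Stat6_KO, 21.1 ± 4.94 in Il21e_KO and 16.8 ± 0.392 in WT. In complex IV, Cox6c stood second to Cox6b2 at 31.6 ± 2.48 CPM in Stat6_KO, 30.0 ± 4.71 in Il21e_KO and 31.97 ± 1.05 in WT. Cox5a, a broadly expressed subunit of complex IV, averaged 17.7 ± 3.05 CPM in Stat6_KO, 21.0 ± 8.29 in Il21e_KO and 18.8 ± 2.16 in WT. Cox5b averaged 20.9 ± 2.85 CPM in Stat6_KO, 26.0 ± 11.3 in Il21e_KO and 18.0 ± 3.07 in WT. Among ATP synthase genes Atp5j was highest, at 40.8 ± 3.74 CPM in Stat6_KO, 50.3 ± 10.95 in Il21e_KO and 54.0 ± 3.86 in WT. Atp5l, subunit g, came next at 33.9 ± 5.08 CPM in Stat6_KO, 36.5 ± 7.42 in Il21e_KO and 42.7 ± 1.66 in WT. Atp5b, which encodes the catalytic beta subunit, was lowest at 15.7 ± 0.923 CPM in Stat6_KO, 18.8 ± 1.03 in Il21e_KO and 14.97 ± 3.11 in WT. Its alpha partner Atp5a1 averaged 24.5 ± 4.77 CPM in Stat6_KO, 26.0 ± 5.07 in Il21e_KO and 25.6 ± 5.44 in WT. The symbols Atp5s and Atp5sl are counted here by name, and RefSeq now calls them Dmac2l and Dmac2.

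**Figure D3:**
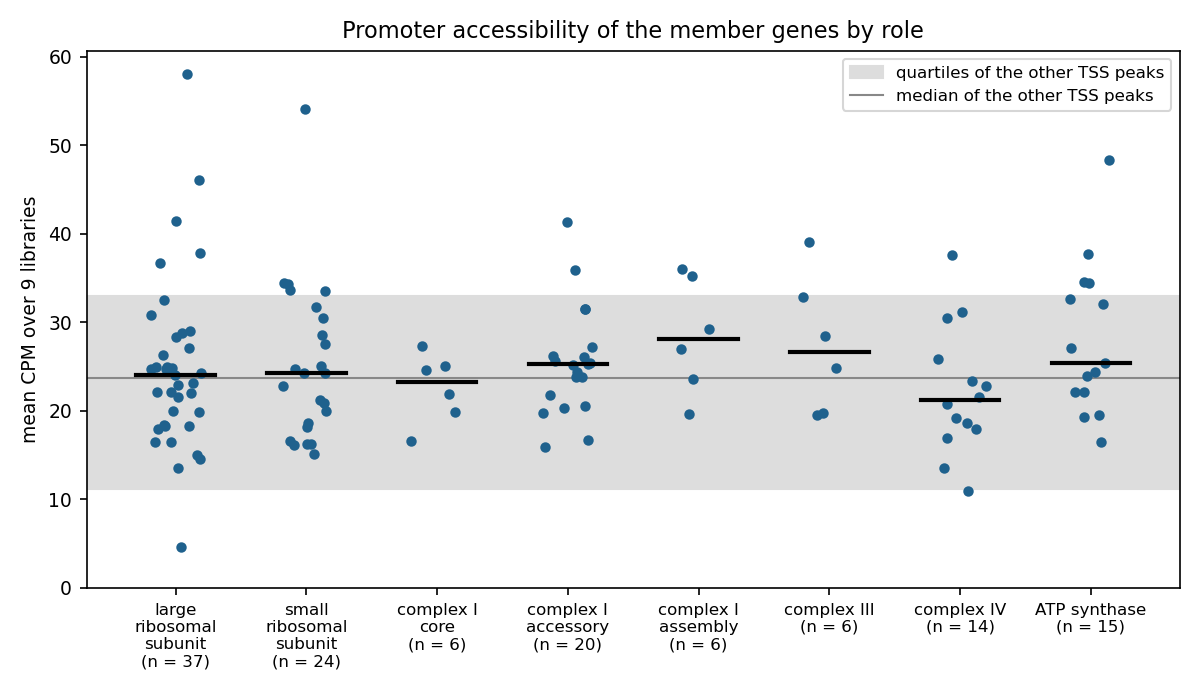
Mean CPM over 9 libraries (y axis) of each member gene's highest TSS peak (points), by role (x axis), with the role median (black bar), and the median and quartiles of the other TSS peaks (grey line and band). Of the 128 genes, 106 lie inside the band of 11.2 to 32.9 CPM, 20 lie above it, led by Mrpl40 (58.0), Mrps6 (54.1) and Atp5j (48.3), and 2 lie below, Cox4i2 (10.9) and Mrpl55 (4.62).

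Within paralogue families, several tissue-restricted forms had no peak under their own symbol, and neither had Mrps18c. Since a peak carries at most 1 symbol, this absence by itself is no measure of a closed promoter. Cox6a2, Cox8b, Cox8c and Ndufa4l2 had 0 peaks of any kind under their symbols, and Cox7b2 had 2 peaks away from its start, the higher at 3.77 CPM. For Cox6a2, Cox8c and Ndufa4l2 no RefSeq window was available, so divergent neighbours were not searched. For Cox8b and Cox7b2 the search found no divergent coding neighbour. Cox4i2, the lung and hypoxia form, had a start peak of 10.9 CPM (13.3 CPM per kb), against 23.4 CPM (20.5 CPM per kb) for Cox4i1. Cox7a1, the heart and muscle form, had 13.6 CPM over a short peak (23.6 CPM per kb), and Cox7a2 had 22.8 CPM (21.9 CPM per kb). The testis form Cox6b2 had more reads than Cox6b1, 37.6 against 18.0 CPM, over a peak of 1675 bases, and per kilobase they had 22.5 and 24.5 CPM. Mrps18a and Mrps18b, paralogues in the small subunit, had 20.9 and 16.2 CPM (25.4 and 12.5 CPM per kb), and Mrps18c had no peak under its own symbol. Cox7a2l, Cox7b and Cox8a had 20.8, 17.0 and 30.6 CPM. The Atp5g genes, which encode the same mature c subunit, ranged from 19.5 CPM (Atp5g2) through 23.9 CPM (Atp5g1) to 34.5 CPM (Atp5g3), or 16.5, 19.3 and 29.1 CPM per kb.

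The comparison of Stat6_KO with WT asks whether loss of STAT6 altered these promoters in resting cells, and 0 of 131 tested member peaks passed. The test was limma-trend with Benjamini-Hochberg adjustment over all 48287 tested peaks at a false discovery rate (FDR) of 0.05, and it called 0.0104% of them. Members were lower in Stat6_KO more often than higher, 94 against 37, with a median log2 fold change of -0.09. The other TSS peaks had a median of -0.08 and all tested peaks 0.00, so the member median lay close to that of other promoters. TSS peaks held 31.6% to 33.3% of the reads in Stat6_KO libraries and 32.3% to 36.4% in WT libraries, and the 14 TSS peaks of the naive T cell markers summed to 216 to 227 CPM in Stat6_KO and 231 to 271 CPM in WT. B cell marker peaks summed to 18.8 to 23.9 CPM in Stat6_KO and 6.73 to 29.0 CPM in WT, and myeloid ones to 41.6 to 46.6 CPM in Stat6_KO and 41.6 to 56.7 CPM in WT. The part of marker levels in the result was not tested. When each library was scaled to its TSS peaks alone, the member median was -0.01, with 61 higher and 70 lower. At an unadjusted p under 0.05 the same fit held 7 members (1 higher, 6 lower), which is 5.34% against 3.29% of all tested peaks. The edgeR quasi-likelihood test called 0 members, and DESeq2 called 0. Groups did not overlap for 5 members with Stat6_KO higher (3.82%, against 6.31% of all tested peaks and 3.25% of the other TSS peaks). They did not overlap for 12 with Stat6_KO lower (9.16%, against 6.89% and 10.7%).

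The members with the smallest p came from the ribosome and from several complexes. Mrpl40 (peak at chr16:18876231-18878404, mm9, over the start) had 50.0, 47.1 and 44.0 CPM in Stat6_KO libraries, against 65.5, 71.6 and 60.0 CPM in WT libraries. All Stat6_KO values lay below all WT values, but the Il21e_KO libraries (81.0, 58.0 and 44.9 CPM) spanned both. The log2 fold change of Mrpl40 was -0.47 ± 0.18 (SE), with a limma-trend adjusted p of 1.00. Mrpl32, whose promoter with NRF1 letters is printed above (peak at chr13:14704981-14706257, mm9), had 11.4, 12.95 and 13.5 CPM in Stat6_KO against 17.7, 19.5 and 17.4 CPM in WT, a log2 fold change of -0.50 ± 0.20. These groups did not overlap either, and the Il21e_KO libraries (21.9, 17.6 and 16.6 CPM) sat at the WT level.

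Atp5j (peak at chr16:84834679-84836589, mm9) had 40.3, 44.7 and 37.3 CPM in Stat6_KO against 49.6, 56.8 and 55.5 CPM in WT (log2 fold change -0.40 ± 0.16). Mrps9, of the small ribosomal subunit (peak at chr1:42907653-42908747, mm9), had 19.3, 21.8 and 22.0 CPM in Stat6_KO against 30.6, 32.7 and 22.6 CPM in WT (-0.41 ± 0.19). Both pairs of groups were apart, for Mrps9 by a narrow gap to WT 3. Atp5d, the delta subunit of the ATP synthase stalk, had the largest negative value (-0.62 ± 0.28), yet its groups met, with 15.3, 22.4 and 21.4 CPM in Stat6_KO and 39.8, 31.9 and 21.9 CPM in WT. In the other direction, Cox4i2 (peak at chr2:152579449-152580273, mm9) had 15.9, 15.9 and 11.6 CPM in Stat6_KO against 12.2, 7.79 and 5.80 CPM in WT (0.73 ± 0.28). It is among the least open member promoters, and its groups overlapped. Ndufc2, an accessory subunit of complex I (peak at chr7:104548156-104549359, mm9), had 32.4, 27.7 and 30.6 CPM in Stat6_KO against 25.1, 23.4 and 20.6 CPM in WT (0.38 ± 0.18), with no overlap. Mrps25 (0.36 ± 0.19), Cox7c (0.31 ± 0.21) and Mrps11 (0.29 ± 0.20) completed the 5 with the smallest p among higher members, and all had a limma-trend adjusted p of 1.00.

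**Figure D4:**
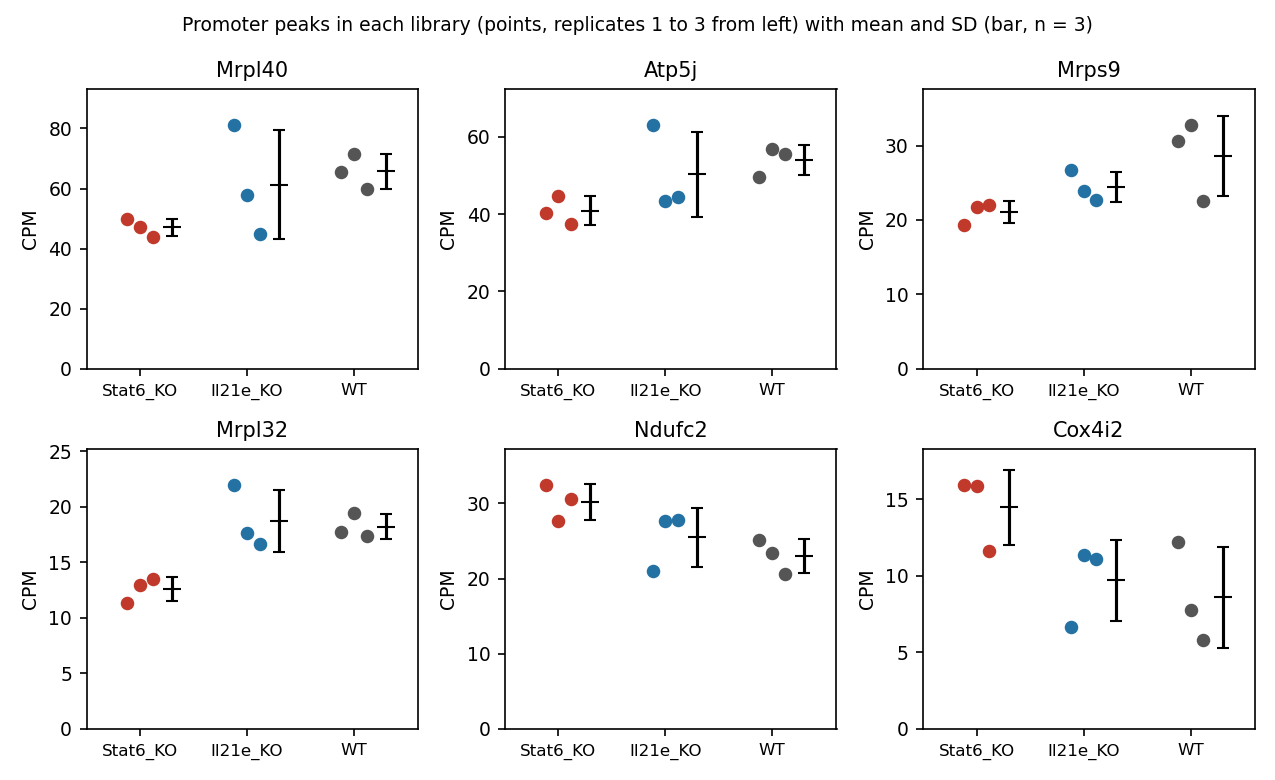
CPM (y axis) of 6 promoter peaks in each library, by genotype (x axis), with the mean and SD (n = 3) beside the points. Stat6_KO points lie below all WT points for Mrpl40, Atp5j, Mrps9 and Mrpl32 and above them for Ndufc2, while the Cox4i2 groups overlap, and 0 of these passed over all peaks.

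Il21e_KO 1 entered the Stat6_KO against WT result through the shared estimate of the spread. Without it the fold changes stayed as given and the standard errors fell, so that Mrpl40 was -0.47 ± 0.12 with a limma-trend adjusted p of 0.0963, the lowest of all members. Then 19 members (4 higher, 15 lower) had an unadjusted p under 0.05, 14.5% against 9.21% of all tested peaks and 11.4% of the other TSS peaks. The fit called 61 peaks in all, of which 10 were other TSS peaks and 0 were members. Leaving out a Stat6_KO or WT library instead gave 1 to 7 members at an unadjusted limma-trend p under 0.05. Their share was below that of all tested peaks without WT 2 (0.763% against 2.14%) and without Stat6_KO 1 (1.53% against 1.76%). It was above without each of the other libraries of these genotypes, as without WT 3 (5.34% against 4.19%).

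By role, the medians of Stat6_KO against WT ran from -0.14 in the small ribosomal subunit (4 higher, 20 lower) to 0.03 in complex III (3 higher, 3 lower). ATP synthase had -0.13, complex I assembly factors -0.10, complex I accessory subunits -0.09, the large ribosomal subunit -0.07, complex I core subunits -0.06 and complex IV -0.05. Cytosolic ribosomal protein promoters (-0.10) and proteasome promoters (-0.07) had medians in the same range.

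For Il21e_KO against WT, 0 of 131 member peaks passed, and limma-trend called 0% of all tested peaks. Members were higher in Il21e_KO more often than lower, 91 against 40, with a median log2 fold change of 0.07, against 0.03 for the other TSS peaks and -0.03 for all tested peaks. That direction rested on Il21e_KO 1: without it the median was -0.10, with 44 higher and 87 lower, and the other TSS peaks had -0.07. Scaling to TSS peaks alone gave 0.02 with 75 higher and 56 lower. An unadjusted p under 0.05 was found for 3 members, all higher (2.29% against 3.52% of all tested peaks). Without Il21e_KO 1 there were 12 such members, 3 higher and 9 lower (9.16% against 6.90% of all tested peaks and 8.98% of the other TSS peaks), with 0 called. Without Il21e_KO 2 there were 7, and without Il21e_KO 3 also 7, all higher (5.34% in each fit). The shares at that p were 6.88% and 7.31% of all tested peaks, and 6.17% and 6.57% of the other TSS peaks. Over all 9 libraries edgeR and DESeq2 each called 0 members. Groups did not overlap for 4 members with Il21e_KO higher (3.05%, against 2.84% of all tested peaks and 2.54% of the other TSS peaks). They did not overlap for 1 with Il21e_KO lower (0.763%, against 4.44% and 2.65%). This comparison shares its WT libraries with the one before.

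Ndufs8 (peak at chr19:3912367-3913405, mm9) had the smallest p, at 41.9, 21.4 and 16.6 CPM in Il21e_KO against 17.7, 15.6 and 14.2 CPM in WT. Its log2 fold change of 0.62 ± 0.27 was 0.25 without Il21e_KO 1, the high library. Mrpl19, of the large ribosomal subunit (peak at chr6:81915270-81916283, mm9), did not follow that library: it had 21.9, 28.4 and 25.0 CPM in Il21e_KO against 17.7, 19.5 and 19.3 CPM in WT, with no overlap (0.39 ± 0.18, and 0.48 without Il21e_KO 1). Mrpl36 had 25.7, 20.2 and 17.8 CPM in Il21e_KO against 17.1, 17.1 and 11.6 CPM in WT, also with no overlap (0.45 ± 0.21, and 0.31 without Il21e_KO 1). Cox5b (0.44 ± 0.25) was also among the 5 with the smallest p and a higher level in Il21e_KO, and its value was 0.12 without Il21e_KO 1. Mrpl42 was the single member with lower, separate values, 23.8, 22.1 and 18.3 CPM in Il21e_KO against 26.9, 24.9 and 27.7 CPM in WT (-0.30 ± 0.18, and -0.38 without Il21e_KO 1). Mrpl2 (-0.26 ± 0.18), Atp5l (-0.24 ± 0.18), Mrps6 (-0.21 ± 0.16) and Mrpl53 (-0.21 ± 0.18) followed. Without Il21e_KO 1 these were -0.34 for Mrpl2, -0.38 for Atp5l, -0.36 for Mrps6 and -0.19 for Mrpl53. The limma-trend adjusted p was 1.00 for each of these promoters over all 9 libraries, and without Il21e_KO 1 it was 0.607 for Mrps6, the lowest of all members.

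Stat6_KO set against Il21e_KO gave 0 called members as well, against 0.0104% of all tested peaks by limma-trend. Members were lower in Stat6_KO for 105 peaks and higher for 26, with a median log2 fold change of -0.19, the other TSS peaks being at -0.12 and all tested peaks at 0.04. Without Il21e_KO 1 the median was -0.01, with 63 higher and 68 lower. Scaling to TSS peaks alone gave -0.06, with 49 higher and 82 lower. At an unadjusted p under 0.05 there were 4 members, all lower, which is 3.05% against 5.68% of all tested peaks. Without Il21e_KO 1 there were also 4, but 3 higher and 1 lower (3.89% of all tested peaks). Without Il21e_KO 2 there were 20 (1 higher, 19 lower), 15.3% against 11.8% of all tested peaks and 15.4% of the other TSS peaks. Without Il21e_KO 3 there were 14, all lower, 10.7% against 12.4% and 16.4%. Both fits called 0 members. Over all 9 libraries the edgeR test and DESeq2 also called 0 members. The groups were separate for 10 members with Stat6_KO lower (7.63%, against 4.59% of all tested peaks and 7.72% of the other TSS peaks). They were separate for 1 with Stat6_KO higher (0.763%, against 6.45% and 2.62%).

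**Figure D5:**
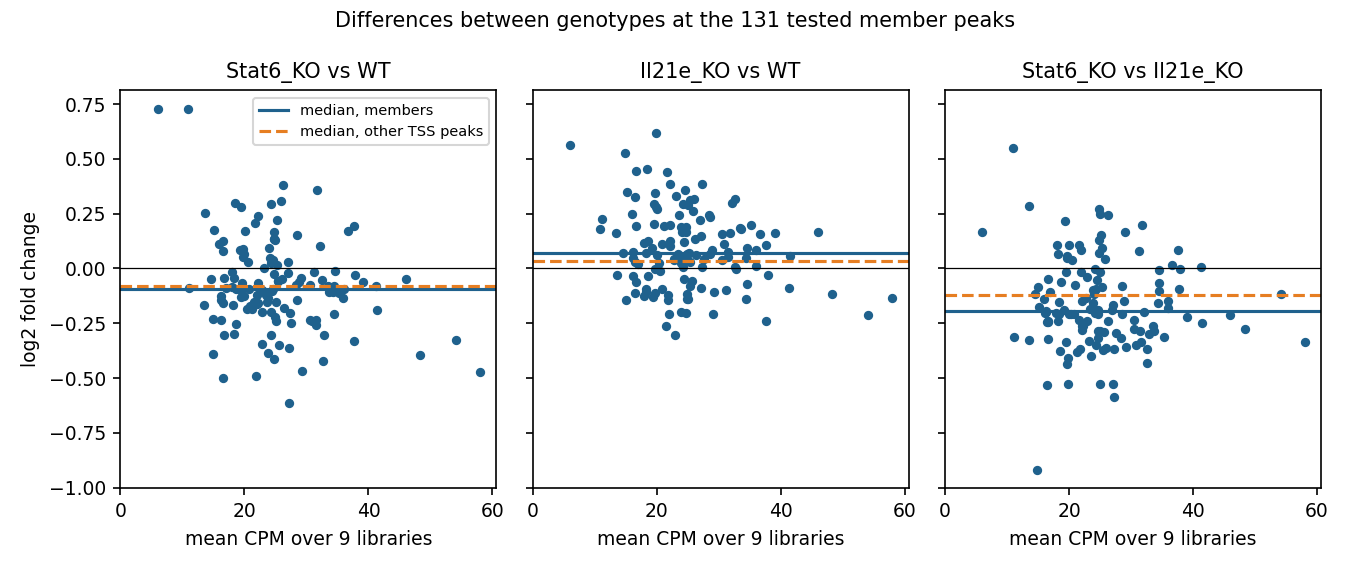
Log2 fold change (y axis) of the 131 tested member peaks against mean CPM over 9 libraries (x axis) in each comparison, with the medians of members (solid line) and of the other TSS peaks (dashed line). The 2 lines lie close together, at -0.09 and -0.08 for Stat6_KO vs WT, 0.07 and 0.03 for Il21e_KO vs WT, and -0.19 and -0.12 for Stat6_KO vs Il21e_KO.

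Mrpl32 had the smallest p of this comparison with 1 peak per gene (-0.53 ± 0.20, limma-trend adjusted p of 0.780, and -0.42 without Il21e_KO 1), its Stat6_KO values given above lying below all those of Il21e_KO. Ndufv2, a core subunit with an iron-sulfur centre, had 18.2, 25.9 and 22.0 CPM in Stat6_KO against 46.7, 30.2 and 26.1 CPM in Il21e_KO (-0.59 ± 0.22, and -0.35 without Il21e_KO 1). Mrps28 had 15.3, 22.4 and 24.5 CPM in Stat6_KO against 37.2, 28.4 and 25.0 CPM in Il21e_KO (-0.53 ± 0.21, and -0.37 without that library). The values of both were separate but nearly touched. Atp5s (-0.43 ± 0.21) and Ndufs8 (-0.53 ± 0.27) followed. Without Il21e_KO 1, Atp5s was -0.26 and Ndufs8 -0.16. Higher values in Stat6_KO were led by Cox4i2 (0.55 ± 0.28), Ndufc2 (0.25 ± 0.18), Cox7a1 (0.29 ± 0.23), Mrpl30 (0.25 ± 0.23) and Mrps25 (0.20 ± 0.19). Only Cox4i2 of these had separate groups, and they nearly touched, at 11.6 CPM in Stat6_KO 3 and 11.3 CPM in Il21e_KO 2. Without Il21e_KO 1 the values were 0.33 for Cox4i2, 0.12 for Ndufc2, 0.05 for Cox7a1, 0.44 for Mrpl30 and 0.18 for Mrps25. A second TSS peak of Mrpl34, named here after its values were seen, had a smaller p still (-0.92 ± 0.31, limma-trend adjusted p of 0.780). It had 11.4, 9.42 and 8.56 CPM in Stat6_KO against 38.1, 13.9 and 13.3 CPM in Il21e_KO, so Il21e_KO 1 stood far above the rest, and the value was -0.44 without that library. The larger Mrpl34 peak had -0.24 ± 0.29, and 0.23 without Il21e_KO 1.

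Genes of the same pathways that the symbol rule leaves out gave 0 calls in each of the 3 limma-trend comparisons. The lists held 4 complex II genes with a TSS peak of 6 listed, cytochrome c and cytochrome c1, 10 of 12 complex IV assembly factors and 9 of 10 mitochondrial translation factors. They also held 5 of 11 symbols of mitochondrial DNA upkeep and transcription, 9 of 12 regulators and 23 of 23 import genes. These are counts of listed symbols, older names among them, so a gene annotated under another name counts as lacking a peak. Median levels ran from 25.5 CPM (import) to 38.8 CPM (cytochrome c and c1). Cyc1, the cytochrome c1 of complex III, had 47.7 CPM, and Tufm, the mitochondrial elongation factor Tu, had 40.6 CPM. Among the regulators, Nrf1 (48.9 CPM) and Gabpb1, the partner subunit of GABPA (48.6 CPM), had the most reads. Yy1 had 21.3 CPM, and Ppargc1a, a coactivator of mitochondrial gene expression, had 7.45 CPM. In Stat6_KO against WT the list medians lay between -0.26 (regulators) and -0.04 (translation), beside -0.08 for the other TSS peaks. Of the 9 regulators, 2 had an unadjusted limma-trend p under 0.05, and the other lists of these pathways had 0. That p was reached by 3.29% of all tested peaks and 3.08% of the other TSS peaks. The regulators were the most extreme of several short lists, and no list was tested as a set. In Il21e_KO against WT the list medians lay between -0.10 (cytochrome c and c1) and 0.09 (mitochondrial DNA and transcription).

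The depth limits what could be seen at a single promoter. At a median of 36 reads per library, counting alone gives a coefficient of variation of 16.4% (median over promoters). The observed coefficient over the 9 libraries had a median of 19.0%, or 15.4% without Il21e_KO 1. The most variable promoters were Cox6a1 (49.2%), Mrps14 (48.0%) and Mrpl55 (47.5%). Cox6a1 had 41.9 CPM in Il21e_KO 1 and 12.95 to 21.8 CPM in the other libraries.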

How the data were processed

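ATAC-seq of 9 libraries (3 genotypes, 3 libraries each, 75-bp paired-end reads per the labels' protocols) was analysed from 1 table of 115727 peaks on mm9. The deposited values are CPM: all columns sum to the same total, so scaling by the authors was to reads in peaks. Per the submitters' processing notes, Bowtie 1.3.0, MACS2 2.0 and HOMER were used; their roles, the peak merging and any filter are not given in the sources used here. The headers of the gene columns are shifted, and columns were read by content. All values were whole multiples of a step per library within 0.01 read (100%), taken as 1 read; 1 read was 0.555 to 0.953 CPM, and a count of 0 allows up to 3 reads. Counting error alone is covered by this, since PCR copies are not independent molecules.

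Peaks passing edgeR's filterByExpr (edgeR 4.0.16, minimum count 10, minimum total 15) on the recovered reads were tested: 48287 peaks, with 131 of 138 members (94.9%) and 81.4% of other TSS peaks. Differences were tested with limma-trend on values of log2(CPM + 1), in R 4.3.3 with limma 3.58.1, all 9 libraries in 1 fit, with Benjamini-Hochberg adjustment over all tested peaks; log2 fold changes are on that scale, which understates changes of low peaks. The code was tested on simulated data. Alternatives included edgeR, DESeq2 1.42.0 (unadjusted p values also counted), other scalings, pseudocounts and filters, and leaving out each library. Named genes are, per comparison, the 5 tested members with the smallest p in each direction, per role the 2 highest and the lowest, and a set of core subunits and paralogues, using each gene's highest TSS peak; 1 gene that the rule names is not reported here. The members, lists and rule were chosen with earlier results of these data known. Peak coordinates are mm9 and promoter sequences GRCm38.p6, matched by symbol, never by position. Replicate numbers were not treated as pairs.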

Additional observations from a re-analysis of the deposited data

How the results depend on the processing

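Over 20 alternative settings per comparison, 0 gave a called member, and the lowest adjusted p of a member was 0.0963 (Stat6_KO vs WT without Il21e_KO 1), 0.607 (Il21e_KO vs WT) and 0.369 (Stat6_KO vs Il21e_KO). The 30 named log2 fold changes kept their sign and their side of the threshold in all 600 recomputed values. Several settings cannot move a fold change: leaving out a library of the third genotype, the 2 genotypes alone, the replicate block or another filter. The named promoters were also picked for the smallest p in the main fit, so this count is no separate support. Member medians ranged from -0.13 to -0.01 for Stat6_KO vs WT, from -0.10 to 0.17 for Il21e_KO vs WT and from -0.28 to -0.01 for Stat6_KO vs Il21e_KO, and 1 setting, leaving out Il21e_KO 1, gave the Il21e_KO vs WT median the other sign. Members at an unadjusted p under 0.05 numbered 0 to 19 for Stat6_KO vs WT (7 as reported), 0 to 12 for Il21e_KO vs WT (3 as reported) and 2 to 20 for Stat6_KO vs Il21e_KO (4 as reported). The highest counts came without Il21e_KO 1 in both comparisons with WT, and without Il21e_KO 2 in the third. Their shares, beside those of all tested peaks in the same fits, are given above. Over all peaks, from 5 called peaks for Stat6_KO vs WT, TSS peaks alone gave 0, a mean of at least 10 CPM gave 3, the 2 genotypes alone gave 38 (21 higher), and leaving out a library gave 3 to 61, the highest without Il21e_KO 1, with 9 without WT 1 and 3 without WT 2 or WT 3. From 0 for Il21e_KO vs WT, no filter gave 1 and leaving out a library 0 to 2. From 5 for Stat6_KO vs Il21e_KO, edgeR on recovered reads gave 12, cyclic loess 13, TSS peaks alone 0, a pseudocount of 5 gave 8, no filter 16, a mean of at least 10 CPM gave 3, and leaving out a library 4 to 17, the highest without Il21e_KO 1, with 9 without WT 1. The cause was not tested. The ratio of member to other TSS medians, 1.01, was 0.953 with 1 peak per gene and 0.909 over filtered peaks.

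Same-numbered replicates did not pair: their deviations correlated at -0.186 to 0.249 (9 pairs), against -0.302 to 0.242 for different numbers (18 pairs). With the replicate number as a block, 4, 0 and 5 peaks were called for Stat6_KO vs WT, Il21e_KO vs WT and Stat6_KO vs Il21e_KO, and 0 members.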

Other observations

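Of the 128 member genes, 8 had more than 1 TSS peak, 18 peaks in all. The 10 secondary peaks ranged from 0.723 CPM to 24.8 CPM, and 7 of them lay under 10 CPM. Mrps23 was the gene with a strong pair, at 34.3 and 24.8 CPM. Mrpl34 had 26.3 CPM at a peak 969 bases before its start and 14.9 CPM at the start itself. Of the 138 member peaks, 129 overlapped the annotated start and 9 lay off it.

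The reads of the Il21e_KO 1 library differed from those of every other library by more than counting noise. The chi-square per degree of freedom over peaks was 1.75 to 2.93, lowest against WT 1 (1.75) and WT 2 (1.78). Over member promoters Il21e_KO 1 correlated with the others at 0.860 on average, against 0.913 to 0.923 for the rest, where the points share library depth and peak length.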
